A study of Mus musculus with 9 samples.

Results

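The genes described here are 34 immediate early genes, found in the deposited table by their gene names, out of 54532 genes. All 34 were found and 32 passed a filter on low values. The exceptions were Fosb and Egr3, which reached the minimum in only 2 libraries. The list was chosen by earlier analysis of the FPKM values of these same libraries, above all by the differences among the vehicle libraries. Chow and 326E values of the members were among those in view. Member values in every comparison are therefore a description without p-values, and their counts of calls support nothing. The samples are livers of wild-type male C57BL/6J mice in 3 groups of 3 libraries. The first group ate normal chow and received vehicle. Another received vehicle on CDAA-HFD, a high-fat feed lacking choline with amino acids in place of protein, which was used to induce metabolic steatohepatitis. The last group ate CDAA-HFD and received the compound 326E, named in the study's title as acting on ATP citrate lyase and PPARα, at 30 mg/kg for 6 weeks. Sample titles of every group begin with MCD, often used for a different diet; the protocol, which says CDAA-HFD or chow, is followed here. Mouse age is not given in the sources used here, nor is it said that each library is a separate animal, so p-values measure the spread between these samples.

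Immediate early genes are transcribed within minutes of a stimulus, from regulators already present in the cell and without new protein synthesis. Growth factor and stress signals reach them through MAP kinases, serum response factor (SRF) with its TCF partners, and CREB. Many encode transcription factors (FOS, JUN, EGR, KLF and NR4A proteins), while others encode phosphatases and RNA-binding proteins that end the signal. In liver they are known for rapid induction after partial hepatectomy, injury, cytokines and feeding signals, and their messenger RNAs are short-lived.

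Depth, as reads assigned to genes, ranged from 13275888 to 17058316, and 1 read in a gene of 2 kb is worth 0.0246 to 0.0455 FPKM. FPKM are reads scaled by gene length and by a library size. The 10 hepatocyte markers summed to at least 27328.9 FPKM in every library. Differences below are of log2(FPKM+1) and are given with their standard error after ±; group means carry the SD of 3 libraries.

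Immediate early genes separated the vehicle libraries from each other as well as from the other groups. Summed over the 34 genes, the level was 180.1, 154.8 and 129.3 FPKM in the chow libraries and 268.7, 254.3 and 212.2 FPKM in the 326E libraries. In vehicle replicates 1, 2 and 3 it was 1665, 405.9 and 2173 FPKM. Vehicle replicates 1 and 3 were thus far above all other libraries, and replicate 2 stood between them and the 326E libraries. The median of the tested members against the chow mean, on the log2 scale, was 1.47 in vehicle replicate 2, 3.43 in replicate 3, and 0.64 to 0.87 in the 326E libraries. Over all 13737 tested genes the same medians lay between -0.04 and 0.004. Vehicle replicate 2 was the lowest vehicle library for all 34 members, and for 33.7% of all tested genes. Replicates 1 and 3 were each at least 2 times replicate 2 for 25 of the 32 tested members, against 2.98% of all tested genes. In bulk tissue, fewer cells that express a gene and less RNA per cell cannot be told apart.

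**Figure D1:**
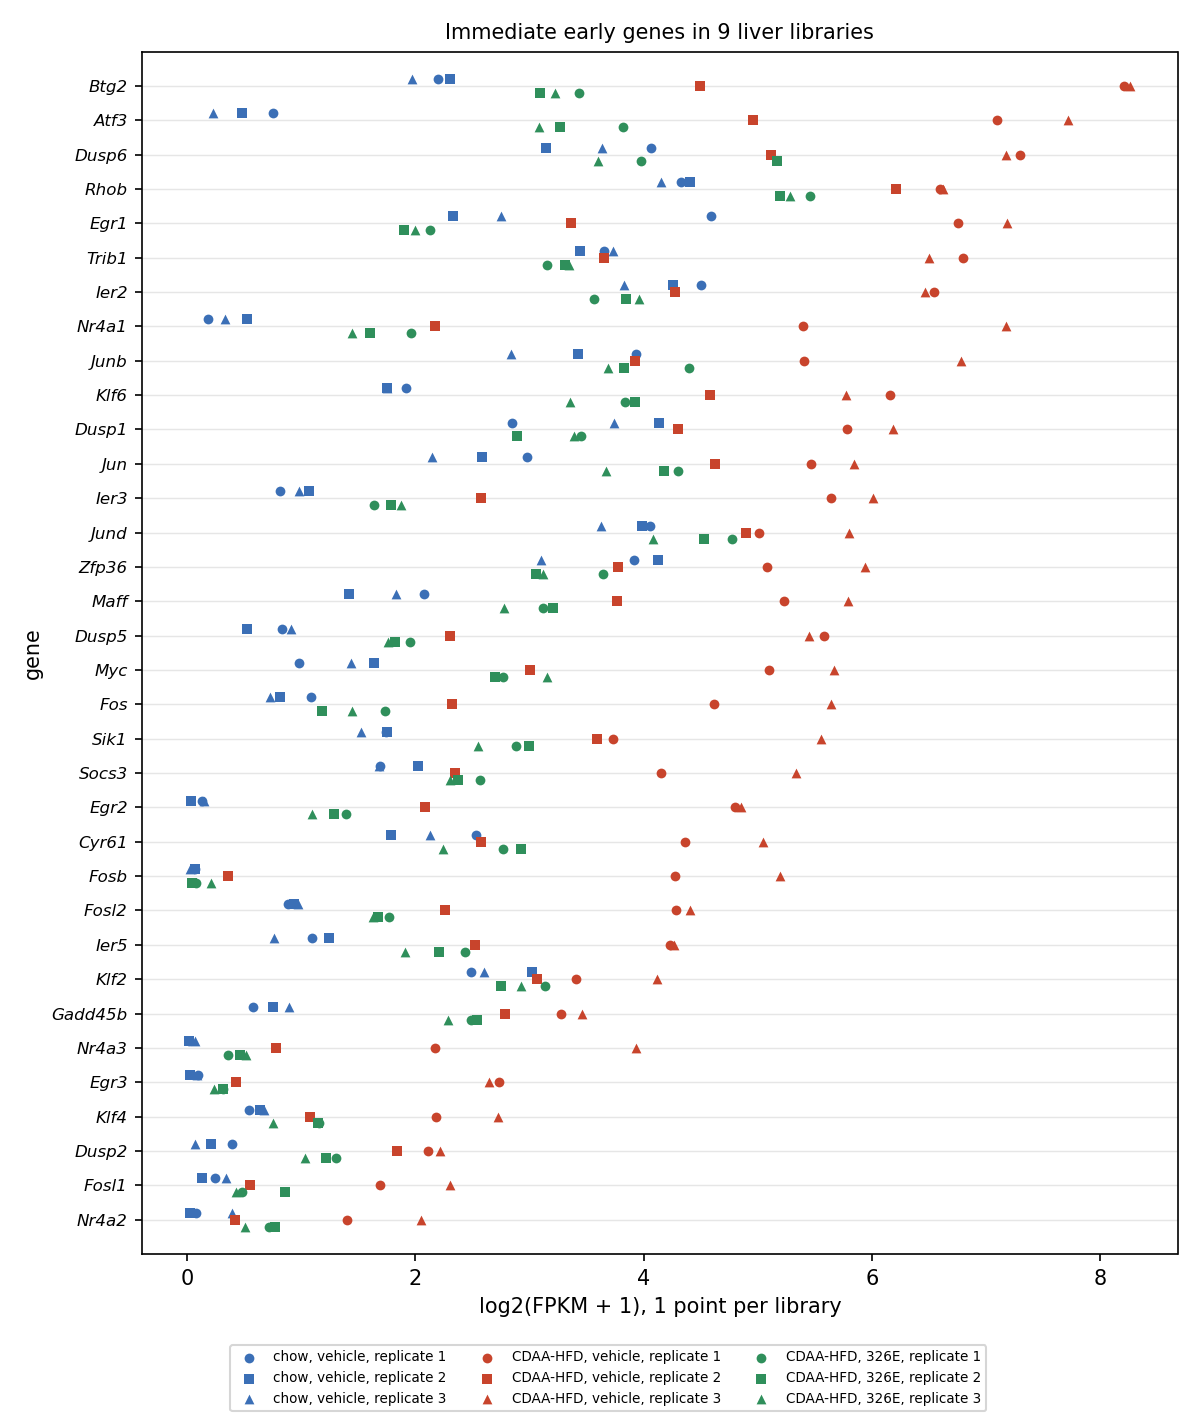
Level of each of the 34 immediate early genes, as log2(FPKM + 1), in the 9 liver libraries; colour gives the group and symbol the replicate, and genes are ordered by vehicle mean. Vehicle replicate 2 (red square) is below the other vehicle libraries for all 34 genes.

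The AP-1 members encode bZIP proteins that bind DNA as dimers. Fos, the prototype, stood at 1.12, 0.755 and 0.658 FPKM in chow, 23.5, 3.995 and 48.9 FPKM in vehicle, and 2.33, 1.27 and 1.73 FPKM in 326E libraries. The vehicle range did not overlap either other group, and its lowest library, replicate 2, was the nearest to the 326E libraries. Fosb, a close relative, read 18.4, 0.284 and 35.7 FPKM in vehicle replicates 1, 2 and 3. It read 0.0266 to 0.157 FPKM in the 326E libraries and 0.0146 to 0.0496 FPKM in the chow libraries. That corresponds to 1878, 36 and 3845 reads in the vehicle libraries, 3 to 15 reads in the 326E libraries and 1 to 4 in the chow libraries. Fosb therefore showed the widest gap of all members among vehicle libraries, 64.8 and 126 times replicate 2. Atf3, a stress-induced bZIP factor, stood at 0.683, 0.394 and 0.169 FPKM in chow, 136, 30.1 and 210 FPKM in vehicle, and 13.1, 8.63 and 7.45 FPKM in 326E libraries. Here the groups were fully apart, and vehicle replicate 2 was still 3.09 times the 326E mean. Its log2 difference, 6.11 ± 0.59 for vehicle against chow, was the highest of the members. Fosl2, a FOS relative without a transactivation domain, was even within chow (0.84 to 0.959 FPKM) and within 326E (2.1 to 2.4 FPKM), and read 18.5, 3.78 and 20.3 FPKM in vehicle. Fosl1, its low-level relative, read 0.0904 to 0.267 FPKM in chow, 2.22, 0.461 and 3.94 FPKM in vehicle and 0.346 to 0.811 FPKM in 326E libraries, and vehicle overlapped 326E.

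The JUN genes, whose proteins pair with FOS proteins, differed less than Fos between vehicle and chow (Jun 2.74 ± 0.32, Junb 1.97 ± 0.61 and Jund 1.35 ± 0.26, against Fos 3.32 ± 0.67). Jun stood at 6.9, 5.01 and 3.42 FPKM in chow, 43.1, 23.7 and 56.3 FPKM in vehicle, and 18.7, 17.1 and 11.7 FPKM in 326E libraries, without overlap between any groups. Junb read 14.3, 9.76 and 6.17 FPKM in chow, 41.4, 14.2 and 109 FPKM in vehicle, and 20.05, 13.2 and 11.9 FPKM in 326E libraries. Its lowest vehicle library lay within the range of both other groups. Jund, the family member with steady expression in many tissues, read 11.3 to 15.6 FPKM in chow, 31.2, 28.8 and 54.7 FPKM in vehicle and 16.0 to 26.4 FPKM in 326E libraries, with vehicle replicates 1 and 2 close to each other. Maff, a small MAF protein that lacks a transactivation domain, read 36.6, 12.7 and 54.5 FPKM in vehicle, against 1.67 to 3.23 FPKM in chow and 5.84 to 8.24 FPKM in 326E libraries. Junb overlaps Prdx2 and Jun overlaps Junos, both on the opposite strand; the strand setting of the counting is not given in the sources used here, so reads of such pairs cannot be told apart.

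Among the zinc finger factors, the EGR genes, direct targets of SRF with TCF partners, showed steep gaps. Egr1 stood at 23.1, 4.03 and 5.74 FPKM in chow, 107, 9.3 and 145 FPKM in vehicle, and 3.38, 2.74 and 2.996 FPKM in 326E libraries. Chow replicate 1 was above vehicle replicate 2, so chow and vehicle overlapped, while every 326E library was below every chow library. Egr2 read 26.9, 3.24 and 27.9 FPKM in vehicle, 1.14 to 1.62 FPKM in 326E and 0.0227 to 0.107 FPKM in chow libraries, where only 1 to 4 reads per library were counted. Egr3 followed the same order at a lower level, with 5.66, 0.346 and 5.27 FPKM in vehicle. It read 0.178 to 0.244 FPKM in 326E and 0.0175 to 0.0703 FPKM in chow libraries. Klf6, a KLF factor linked to injury responses, was fully apart between groups, at 2.36 to 2.79 FPKM in chow, 9.21 to 14.2 FPKM in 326E, and 70.5, 22.9 and 53.6 FPKM in vehicle. Klf4, an epithelial differentiation factor, read 3.53, 1.11 and 5.62 FPKM in vehicle against 0.457 to 0.597 FPKM in chow and 0.688 to 1.23 FPKM in 326E libraries. Klf2, a flow-responsive factor of endothelium, differed least, at 4.61 to 7.10 FPKM in chow, 9.60, 7.35 and 16.4 FPKM in vehicle and 5.72 to 7.81 FPKM in 326E libraries.

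The NR4A genes encode orphan nuclear receptors that are regulated by their own abundance. Nr4a1 stood at 0.132, 0.44 and 0.259 FPKM in chow, 41.2, 3.51 and 144 FPKM in vehicle, and 2.9, 2.03 and 1.72 FPKM in 326E libraries. Replicates 1 and 3 of the vehicle group, close for many members, were 3.50 times apart here. The spread was like that for Nr4a3, which read 0.0129 to 0.0456 FPKM in chow, 3.51, 0.715 and 14.3 FPKM in vehicle and 0.284 to 0.427 FPKM in 326E libraries. Nr4a2 read 0.019 to 0.314 FPKM in chow, 1.64, 0.339 and 3.13 FPKM in vehicle and 0.42 to 0.709 FPKM in 326E libraries, and was the sole member whose vehicle replicate 2 lay below every 326E library. Myc, a growth regulator, stood at 0.97 to 2.1 FPKM in chow, 33.2, 7.04 and 49.9 FPKM in vehicle, and 5.81, 5.48 and 7.89 FPKM in 326E libraries. Its vehicle replicate 2 lay within the 326E range.

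Among feedback genes, too, vehicle replicate 2 was the lowest vehicle library. Btg2, an antiproliferative partner of the deadenylase complex, had the highest vehicle mean of all members, 208 ± 162 FPKM. It stood at 3.59, 3.94 and 2.92 FPKM in chow, 295, 21.5 and 307 FPKM in vehicle, and 9.8, 7.53 and 8.34 FPKM in 326E libraries. Replicates 1 and 3 thus differed by 1.04 times from each other and by 13.7 and 14.3 times from replicate 2. Among the DUSP genes, whose products dephosphorylate MAP kinases, Dusp5 read 0.783, 0.437 and 0.883 FPKM in chow, 47.0, 3.94 and 42.7 FPKM in vehicle, and 2.86, 2.53 and 2.39 FPKM in 326E libraries. Dusp6, a phosphatase for ERK, stood at 15.8, 7.86 and 11.4 FPKM in chow, 157, 33.8 and 144 FPKM in vehicle, and 14.8, 34.9 and 11.1 FPKM in 326E libraries. 326E replicate 2 was therefore above vehicle replicate 2. Dusp1 was at 6.2, 16.5 and 12.4 FPKM in chow, 54.2, 18.7 and 71.7 FPKM in vehicle, and 9.95, 6.4 and 9.5 FPKM in 326E libraries. Dusp2, in contrast, was even across the vehicle libraries, at 3.33, 2.58 and 3.65 FPKM, and lower in 326E (1.05 to 1.47 FPKM) and chow libraries (0.0454 to 0.309 FPKM).

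Promoters were read from RefSeq windows on GRCm38.p6, the assembly behind mm10, from 250 bases before to 50 bases after the transcription start; 27 of the 34 members had one. Egr1, Egr3, Fosl1, Ier2, Myc, Sik1 and Trib1 had no window. The RefSeq start lay 671 to 34706 bases from the deposited gene start for Fosl2, Socs3, Zfp36, Jund, Nr4a1 and Atf3. For the others it lay within 152 bases. Of these 6 genes, Zfp36 (1025 bases) counts below for the CArG box, and Fosl2, Socs3, Zfp36 and Nr4a1 for GCGNGGGCG. Bases after the start lay in the longest transcript for 19 of the 27. Matches were sought on both strands. The CArG box bound by SRF was in 2 members, Dusp5 and Zfp36, 7.41% of those with a window against 1.51% of all 20936 windows. The CREB site TGACGTCA was in 2, Btg2 and Dusp1, also 7.41%, against 2.23%. The AP-1 site TGANTCA was in 0 of 27, against 7.41%. In windows of tested genes the CArG box, TGACGTCA and TGANTCA were in 1.33%, 3.11% and 5.26%. GCGNGGGCG, a site of EGR proteins whose G- and C-rich letters can overlap other GC-rich sites, was in 11 of 27 (40.7%), against 6.79% of all windows and 10.5% of the windows of tested genes. Median GC content was 64.7% in the members' windows, 55% in all and 60.7% in those of tested genes. A match is a description and not a bound site. The 250 bases before the start are shown, 5′ to 3′ on the strand of the gene, for Btg2, Dusp1 and Dusp5, which hold the CREB site or CArG boxes, and for Fosb, the member with the widest vehicle gap; capitals mark the matches. They are chr1:134079156-134079405 on the minus strand for Btg2, chr17:26508473-26508722 on the minus strand for Dusp1, chr19:53528895-53529144 on the plus strand for Dusp5 and chr7:19310046-19310295 on the minus strand for Fosb.
Btg2: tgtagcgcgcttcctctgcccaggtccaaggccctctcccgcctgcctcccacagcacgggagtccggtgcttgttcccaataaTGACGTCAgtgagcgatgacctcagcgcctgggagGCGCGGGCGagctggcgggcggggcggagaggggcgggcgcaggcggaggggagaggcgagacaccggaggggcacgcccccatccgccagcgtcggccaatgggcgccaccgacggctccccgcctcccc
Dusp1: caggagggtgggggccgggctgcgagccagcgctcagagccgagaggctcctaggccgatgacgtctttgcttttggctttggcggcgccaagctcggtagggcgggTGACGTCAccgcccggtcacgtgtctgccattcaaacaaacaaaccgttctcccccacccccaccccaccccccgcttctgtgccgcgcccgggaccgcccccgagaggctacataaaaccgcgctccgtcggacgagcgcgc
Dusp5: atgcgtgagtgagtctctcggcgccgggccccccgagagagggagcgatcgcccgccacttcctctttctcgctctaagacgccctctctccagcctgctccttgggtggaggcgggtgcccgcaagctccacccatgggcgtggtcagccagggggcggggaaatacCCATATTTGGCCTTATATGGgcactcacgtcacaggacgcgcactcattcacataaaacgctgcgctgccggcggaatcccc
Fosb: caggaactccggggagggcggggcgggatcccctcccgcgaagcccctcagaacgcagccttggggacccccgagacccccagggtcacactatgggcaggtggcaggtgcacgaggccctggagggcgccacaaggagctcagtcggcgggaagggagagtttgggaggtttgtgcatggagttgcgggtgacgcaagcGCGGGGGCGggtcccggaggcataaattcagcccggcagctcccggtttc
In the Btg2 window TGACGTCA began 166 bases before the start and an EGR match 131 bases before it. In that of Dusp1 TGACGTCA began 143 bases before the start. Dusp5 had adjoining CArG boxes, CCATATTTGG beginning 82 bases and CCTTATATGG 72 bases before the start. Fosb had an EGR match, GCGGGGGCG, 50 bases before it. For all 4 genes vehicle replicate 2 was the lowest vehicle library, as for all 34 members. Replicate 3 was highest for Btg2, Dusp1 and Fosb, as for 28 of the 34, and replicate 1 for Dusp5.

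Zfp36, which encodes the mRNA-decay protein tristetraprolin, stood at 14.1, 16.4 and 7.55 FPKM in chow, 32.9, 12.7 and 60.5 FPKM in vehicle, and 11.5, 7.32 and 7.71 FPKM in 326E libraries. Chow and vehicle overlapped. Trib1, a pseudokinase, read 9.88 to 12.3 FPKM in chow, 110, 11.6 and 89.7 FPKM in vehicle and 7.88 to 9.15 FPKM in 326E libraries. Vehicle replicate 2 lay within the chow range for Trib1 and Zfp36, and also for Ier2, Junb and Egr1. Socs3, an inhibitor of cytokine receptor signalling, stood at 2.20 to 3.07 FPKM in chow, 16.8, 4.08 and 39.5 FPKM in vehicle and 3.94 to 4.93 FPKM in 326E libraries. Sik1, a salt-inducible kinase, set vehicle replicate 3 alone apart, with 12.3, 11.04 and 46.0 FPKM in vehicle, 4.84 to 6.97 FPKM in 326E and 1.88 to 2.36 FPKM in chow libraries. Gadd45b, a stress sensor, was comparatively even, at 8.69, 5.91 and 10.01 FPKM in vehicle, 3.88 to 4.81 FPKM in 326E and 0.488 to 0.859 FPKM in chow libraries.

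The remaining members are small IER proteins, a matricellular protein and a GTPase. Ier3, a regulator of survival, read 49.0, 4.96 and 63.5 FPKM in vehicle, 2.1 to 2.67 FPKM in 326E and 0.754 to 1.09 FPKM in chow libraries. Ier2 was at 92.6, 18.4 and 87.6 FPKM in vehicle, and its chow (13.2 to 21.6 FPKM) and 326E ranges (10.9 to 14.6 FPKM) overlapped. Ier5 stood at 17.8, 4.75 and 18.2 FPKM in vehicle, 2.76 to 4.41 FPKM in 326E and 0.695 to 1.37 FPKM in chow libraries. In these genes, too, vehicle replicate 2 was the library apart from its group. Cyr61, a secreted matricellular protein and YAP target, read 2.45 to 4.80 FPKM in chow, 19.6, 4.97 and 32.1 FPKM in vehicle and 3.73 to 6.58 FPKM in 326E libraries, and vehicle overlapped 326E. Rhob, a short-lived endosomal GTPase, was the most even of the abundant members, at 19.1, 20.2 and 16.8 FPKM in chow, 95.7, 73.3 and 97.7 FPKM in vehicle, and 43.1, 35.6 and 38.1 FPKM in 326E libraries. All 3 groups were apart for Rhob, and its standard errors were among the lowest of the members (2.18 ± 0.14 for vehicle against chow and -1.16 ± 0.14 for 326E against vehicle).

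**Figure D2:**
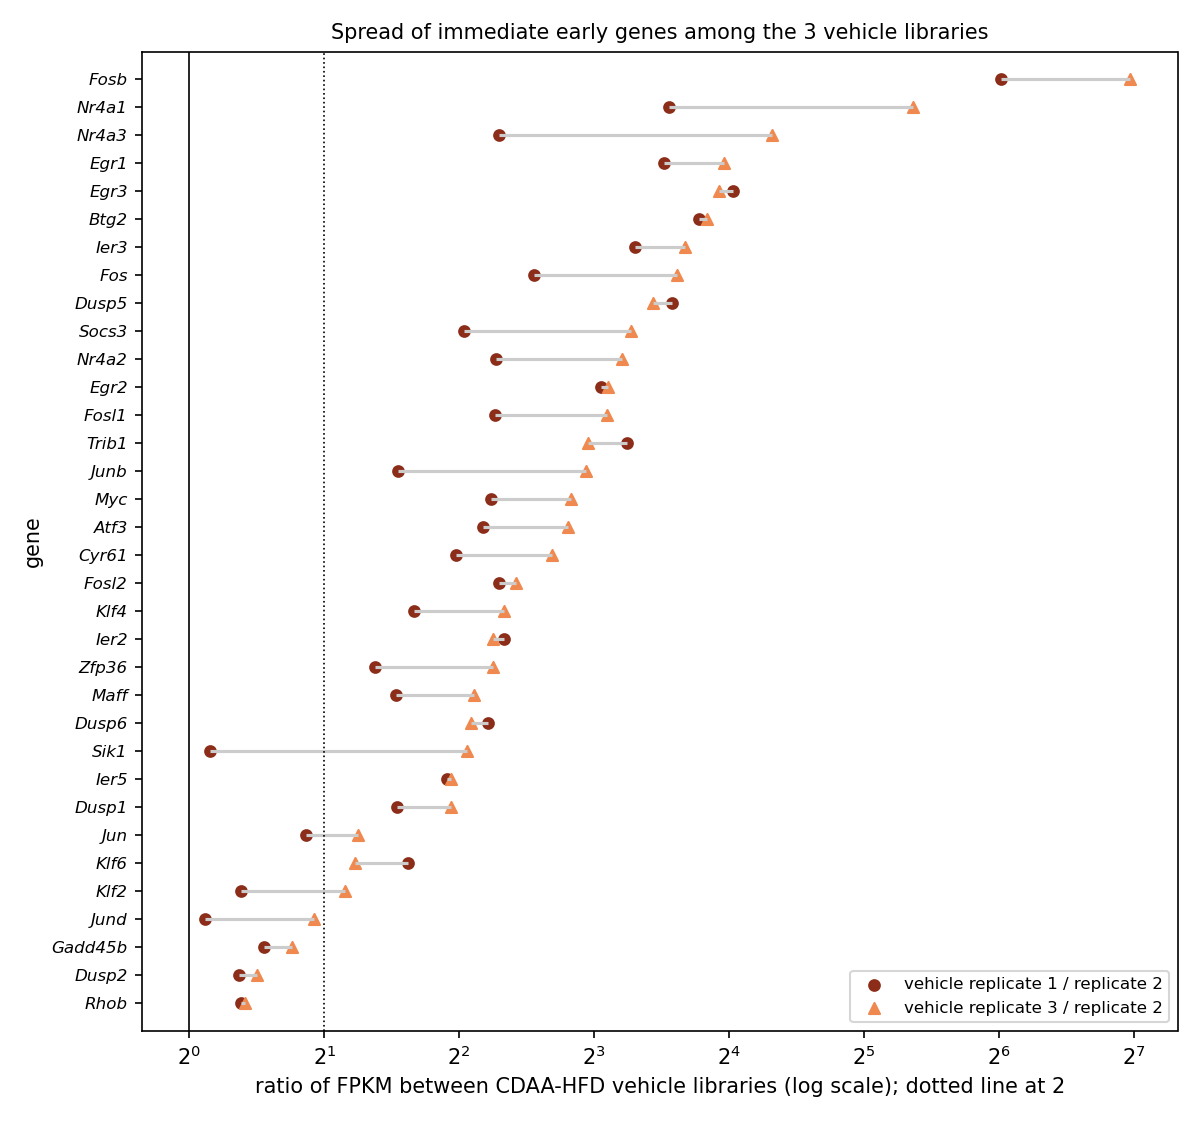
Ratio of FPKM in vehicle replicates 1 (circles) and 3 (triangles) to vehicle replicate 2 for each of the 34 immediate early genes, on a log scale, with a solid line at 1 and a dotted line at 2. Ratios of replicate 1 ran from 1.08 for Jund to 64.8 for Fosb, and those of replicate 3 from 1.33 for Rhob to 126 for Fosb.

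The vehicle libraries also differed in pattern, not only in size. Vehicle replicate 3 was highest for 28 of the 34 members, against 33.6% of all tested genes, and was lowest for 0, against 29.9%. Replicate 1 was highest for the other 6, Klf6, Trib1, Dusp5, Dusp6, Egr3 and Ier2, against 34.6%. Nr4a3, Sik1, Nr4a1, Junb, Socs3 and Fos were 4.07, 3.74, 3.50, 2.63, 2.36 and 2.08 times higher in replicate 3 than in replicate 1. By contrast Rhob, Ier5, Egr2, Btg2 and Fosl2 differed by 1.02 to 1.09 times between those libraries. The SD of log2(FPKM+1) was largest in the vehicle group for 32 of 32 tested members, against 38.2% of all tested genes. Its median over the tested members was 0.198 in chow, 1.22 in vehicle and 0.229 in 326E livers, and over all tested genes 0.142, 0.153 and 0.138.

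For the diet comparison, vehicle against chow, 30 of 32 tested members were called higher at an adjusted p under 0.05 and 0 lower, where 20.8% of all tested genes were called higher and 41.6% in either direction. Egr1 and Zfp36 were not called. Nr4a3, Nr4a2 and Fosl1, which are among the 30, passed the filter on low values only with the help of the vehicle libraries, the higher group here. They also count among the 32 tested in the treatment comparison. The members' median difference was 2.49, against -0.04 over all tested genes, and their lowest was Klf2 at 0.83 ± 0.25. Groups did not overlap for 27 of the 32, against 24.9% of all tested genes. With vehicle replicate 2 as the only vehicle library kept, 19 were called higher, where 14.6% of all tested genes were called higher and 26.2% in either direction, its spread being assumed like that of the other groups. These 19 were among the 30 and included Atf3, Btg2, Fos, Jun, Klf6, Myc, Nr4a1 and Rhob.

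For the treatment comparison, 326E against vehicle, 18 of 32 tested members were called lower and 0 higher, where 6.5% of all tested genes were called lower. The differences ran from -3.76 ± 0.93 for Egr1 and -3.74 ± 0.84 for Btg2 to -0.59 ± 0.25 for Klf2, with a median of -1.76 against -0.02 over all tested genes. Groups did not overlap for 23 of the 32, against 18.2% of all tested genes. By role, 5 of 8 tested AP-1 members, 3 of 5 EGR and KLF members, 4 of 4 DUSP members, 4 of 5 IER, matricellular and GTPase members, 2 of 6 feedback members and 0 of 4 NR4A and Myc members were called. This comparison shares its vehicle libraries with the diet comparison, so the opposite signs are not separate observations. The 326E mean lay between the chow and vehicle means for 27 of 32 tested members, against 53.8% of all tested genes, and chow, 326E and vehicle were in that order with no overlap for 18, against 8.11%.

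The count for 326E against vehicle turned on single libraries. Leaving out vehicle replicate 2 gave 30 calls, vehicle replicate 1 gave 4 and vehicle replicate 3 gave 5, with medians of -2.40, -1.58 and -1.19. Calls among all genes in those fits numbered 1407, 1110 and 879, against 1574 with all libraries. Leaving out 326E replicate 1, 2 or 3 gave 4, 5 or 3 calls, with the members' median at -1.83, -1.75 and -1.69, close to the -1.76 with all libraries. Over all genes these fits called 961, 659 and 724, against 1574. Where vehicle replicate 2 alone stood for its group there were 3, namely Btg2, Egr2 and Rhob, and the median difference was -0.50. Atf3, Dusp2 and Rhob were called in every fit that left out 1 library. Set directly against the 326E libraries, vehicle replicate 2 was above all of them for 23 of 32 tested members, against 34.3% of all tested genes, and below all of them for 1, Nr4a2, against 29.9%. Fosl1, Junb, Cyr61, Nr4a2 and Socs3 had slightly higher values in 326E livers when only this vehicle library was kept.

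The comparison of 326E against chow was fitted on those 6 libraries alone, so that the spread within the vehicle group did not enter. It called 20 of 32 tested members higher and 0 lower, where 14.6% of all tested genes were called higher. The median difference was 0.70, against -0.02 over all tested genes. The highest values were those of Atf3 (2.90 ± 0.22), Klf6 (1.90 ± 0.16), Gadd45b (1.70 ± 0.12), Myc (1.52 ± 0.20) and Jun (1.48 ± 0.25). Fos was at 0.58 ± 0.17 and Nr4a3, the lowest of those called, at 0.41 ± 0.10. In all 20 every 326E library was above every chow library, and 16 were called in every fit that left out 1 library. Over all genes those fits called 2115 to 3219, against 3689 with no library left out. Groups did not overlap, with 326E higher, for 23 of the 32, against 22.4% of all tested genes. Nr4a3, Nr4a2 and Fosl1 passed the filter on low values only with the help of the vehicle libraries, since 0, 2 and 1 of the 6 chow and 326E libraries reached 0.5 FPKM. Of these, Nr4a3 and Nr4a2 are among the 20.

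Another 12 tested members were not called against chow. Jund (0.58 ± 0.20), Klf4 (0.40 ± 0.13) and Fosl1 (0.35 ± 0.14) had no overlap between the groups. Negative values were given by 5 members: Egr1 (-1.21 ± 0.53), Zfp36 (-0.44 ± 0.29), Ier2 (-0.40 ± 0.19), Trib1 (-0.34 ± 0.11) and Dusp1 (-0.33 ± 0.33). Egr1 and Trib1 were lower in every 326E library than in every chow library. Scaled to total assigned reads the value of Dusp1 was 0.001. With all 9 libraries in the fit, so that the spread within the vehicle group entered, 6 members were called instead of 20. Among all genes that fit called 3688 instead of 3689. Transcripts of the pancreas stood apart in libraries of this comparison, Cela2a at 1312.7 and Cpa1 at 515.7 FPKM in chow replicate 3 and at 20.2 and 66.5 FPKM in 326E replicate 1, against at most 1.57 and 0.354 FPKM in any other library. Without chow replicate 3, 19 members were called, and without 326E replicate 1, 17 were called. Over all genes these fits called 2606 and 2429, against 3689.

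**Figure D3:**
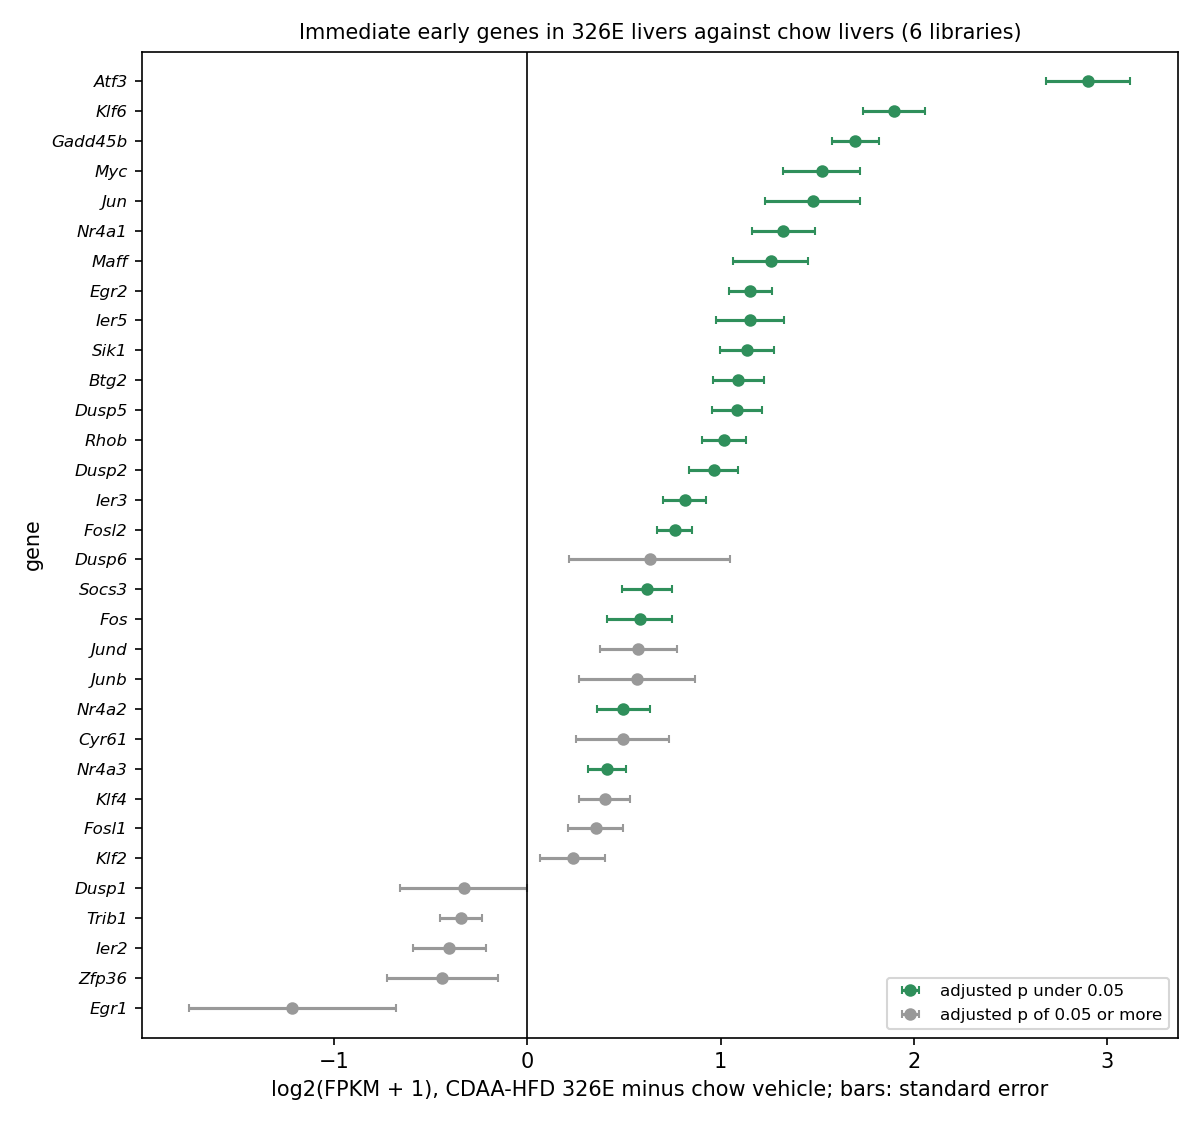
Difference of log2(FPKM + 1) between CDAA-HFD 326E and chow vehicle livers for the 32 tested immediate early genes, with standard errors, from the fit on those 6 libraries. Green marks the 20 genes with an adjusted p under 0.05; Egr1, Zfp36, Ier2, Trib1 and Dusp1 lie left of 0.

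Genes around the members were taken from lists of other rapidly induced genes and of the signalling apparatus, 101 of 107 tested. Of 29 tested other rapidly induced genes, 17 rose and 1, Id2, fell in vehicle against chow; 9 fell and 0 rose in 326E against vehicle; and 6 rose and 2, Id2 and Nfil3, fell in 326E against chow. In either direction these calls made up 62.1%, 31% and 27.6% of the list, against 41.6%, 11.5% and 26.9% of all tested genes. The share for 326E against chow was thus near that of all genes. The list's medians were 0.92, -1.11 and 0.06. Tnfaip3, an inhibitor of NF-κB signalling, stood at 0.751, 0.844 and 0.542 FPKM in chow, 22.1, 4.98 and 20.5 FPKM in vehicle, and 2.45, 2.27 and 2.05 FPKM in 326E libraries. Tnfaip3 rose by 3.07 ± 0.43 with diet (adjusted p = 0.000583) and fell by 2.14 ± 0.43 with 326E (adjusted p = 0.0168). Plk3, a stress-responsive polo-like kinase, read 156, 54.8 and 222 FPKM in vehicle and rose by 2.81 ± 0.61 with diet (adjusted p = 0.00559). Gadd45g, a stress sensor of the Gadd45 family, rose by 2.68 ± 0.69 (adjusted p = 0.0134), and Tiparp, a mono-ADP-ribosyltransferase, fell by 1.79 ± 0.38 with 326E (adjusted p = 0.0189). Vehicle replicate 2 was the lowest vehicle library for 22 of these 29 genes, against 33.7% of all tested genes. The same held for 9 of 13 genes of MAP kinase feedback and mRNA decay and 13 of 19 of the MAP kinase cascade. It held for 7 of 14 SRF, TCF and CREB regulators, 3 of 10 AP-1 partners, 3 of 8 cytoskeletal SRF targets and 2 of 8 heat shock genes. Among the other rapidly induced genes, Ctgf, a matricellular relative of Cyr61, was not low in replicate 2. It stood at 26.5, 27.7 and 26.1 FPKM in vehicle, 2.11 to 5.48 FPKM in chow and 5.82 to 10.5 FPKM in 326E libraries, and fell by 1.66 ± 0.26 with 326E (adjusted p = 0.0064).

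Of 13 tested genes of MAP kinase feedback and mRNA decay, 11 rose and 0 fell with diet, 6 fell and 1, Dusp3, rose with 326E against vehicle, and 5 rose and 0 fell in 326E against chow. In either direction these calls made up 84.6%, 53.8% and 38.5% of the list, against 41.6%, 11.5% and 26.9% of all tested genes. The list's medians were 0.95, -0.48 and 0.38. Dusp8, a phosphatase for JNK and p38, stood at 0.255, 0.301 and 0.561 FPKM in chow, 6.19, 3.37 and 8.28 FPKM in vehicle, and 2.07, 1.73 and 1.1 FPKM in 326E libraries. Its differences were 2.28 ± 0.26 with diet (adjusted p = 0.000177) and -1.35 ± 0.26 with 326E (adjusted p = 0.0137). Dusp4, a nuclear phosphatase for ERK, had the same vehicle gap as the members, at 12.7, 3.18 and 16.5 FPKM. It rose by 1.67 ± 0.47 with diet (adjusted p = 0.0197) and fell by 1.79 ± 0.47 with 326E (adjusted p = 0.0418). Zfp36l2 and Zfp36l1, relatives of Zfp36, are RNA-binding proteins; Zfp36l2 rose by 1.69 ± 0.22 with diet (adjusted p = 0.000357), and Zfp36l1 fell by 1.23 ± 0.31 with 326E (adjusted p = 0.0367).

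Upstream signalling genes were called in vehicle against chow about as often as all tested genes, 8 of 19 in the MAP kinase cascade (42.1%) and 6 of 14 SRF, TCF and CREB regulators (42.9%), against 41.6%. Of the 19 tested genes of the MAP kinase cascade, 4 rose and 4 fell with diet, the rises led by Rps6ka3, a kinase downstream of ERK (0.78 ± 0.08, adjusted p = 0.000152), Mapk3, which encodes ERK1 (0.63 ± 0.22, adjusted p = 0.0469), and Rps6ka1 (0.42 ± 0.08, adjusted p = 0.00351). In that list 1 each rose and fell with 326E against vehicle, Hras by 0.44 ± 0.10 (adjusted p = 0.0233) and Rps6ka3 by -0.58 ± 0.08 (adjusted p = 0.00512). These 2 were 10.5% of the list, about as for all tested genes (11.5%). Medians of that list were -0.11 and -0.04. Of 14 tested SRF, TCF and CREB regulators, 5 rose and 1, Crtc1, fell with diet, led by the SRF coactivators Mkl2 (0.69 ± 0.12, adjusted p = 0.00179) and Mkl1 (0.54 ± 0.10, adjusted p = 0.00197) and by Creb1 (0.38 ± 0.11, adjusted p = 0.0192). Of those regulators 0 were called for 326E against vehicle. Among 10 tested AP-1 partners, 6 rose and 0 fell with diet, led by Jdp2 (1.34 ± 0.20, adjusted p = 0.000775), Nfe2l2 (1.18 ± 0.18, adjusted p = 0.000817) and Batf (0.53 ± 0.16, adjusted p = 0.0265), and Jdp2 (-1.01 ± 0.20, adjusted p = 0.0146) and Nfe2l2 (-0.64 ± 0.18, adjusted p = 0.0492) fell with 326E. The 8 cytoskeletal SRF targets gave 7 rises and 0 falls with diet and 4 falls and 0 rises with 326E, led by Actg1, cytoplasmic gamma-actin, at 2.54 ± 0.29 (adjusted p = 0.000188) and -1.30 ± 0.29 (adjusted p = 0.0233). Flna, an actin crosslinker, gave 2.35 ± 0.14 (adjusted p = 8.4e-06) and -0.73 ± 0.14 (adjusted p = 0.0137), and the tropomyosin gene Tpm4 gave 1.79 ± 0.15 (adjusted p = 4.08e-05) and -0.64 ± 0.15 (adjusted p = 0.0299). The 8 heat shock genes gave 5 rises and 0 falls with diet and 3 falls and 0 rises with 326E. With diet Hspa1b rose by 2.23 ± 0.28 (adjusted p = 0.000296), Dnajb1 by 2.10 ± 0.46 (adjusted p = 0.00602) and Hspa1a by 1.52 ± 0.15 (adjusted p = 9.08e-05). With 326E Dnajb1 fell by 1.73 ± 0.46 (adjusted p = 0.0437), Hspa1a by 1.10 ± 0.15 (adjusted p = 0.00408) and Bag3 by 0.52 ± 0.13 (adjusted p = 0.0326). Hspa1b, an inducible chaperone, stood at 20.8, 15.4 and 10.2 FPKM in vehicle, while its cochaperone Dnajb1 stood at 52.7, 9.90 and 29.7 FPKM. With diet, 60% of AP-1 partners, 87.5% of cytoskeletal SRF targets and 62.5% of heat shock genes were called, against 41.6% of all tested genes. For 326E against vehicle these shares were 20%, 50% and 37.5%, against 11.5%.

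The calls among these neighbouring genes for 326E against vehicle also turned on single libraries. Of the 16 named for that comparison, 3, Ctgf, Hspa1a and Rps6ka3, were called in every fit that left out 1 library, against 17 of 21 named for vehicle against chow. Dnajb1 and Dusp4 were called in 1 of 9 such fits, Zfp36l1 in 2, Nfe2l2 in 3 and Actg1 in 4, while Tnfaip3 and Tiparp were called in 6. Where only vehicle replicate 2 stood for its group, Tnfaip3 alone of the 16 kept its call. For vehicle against chow the exceptions were Mapk3 (2 of 9 fits), Batf (5), Dusp4 (6) and Creb1 (7).

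**Figure D4:**
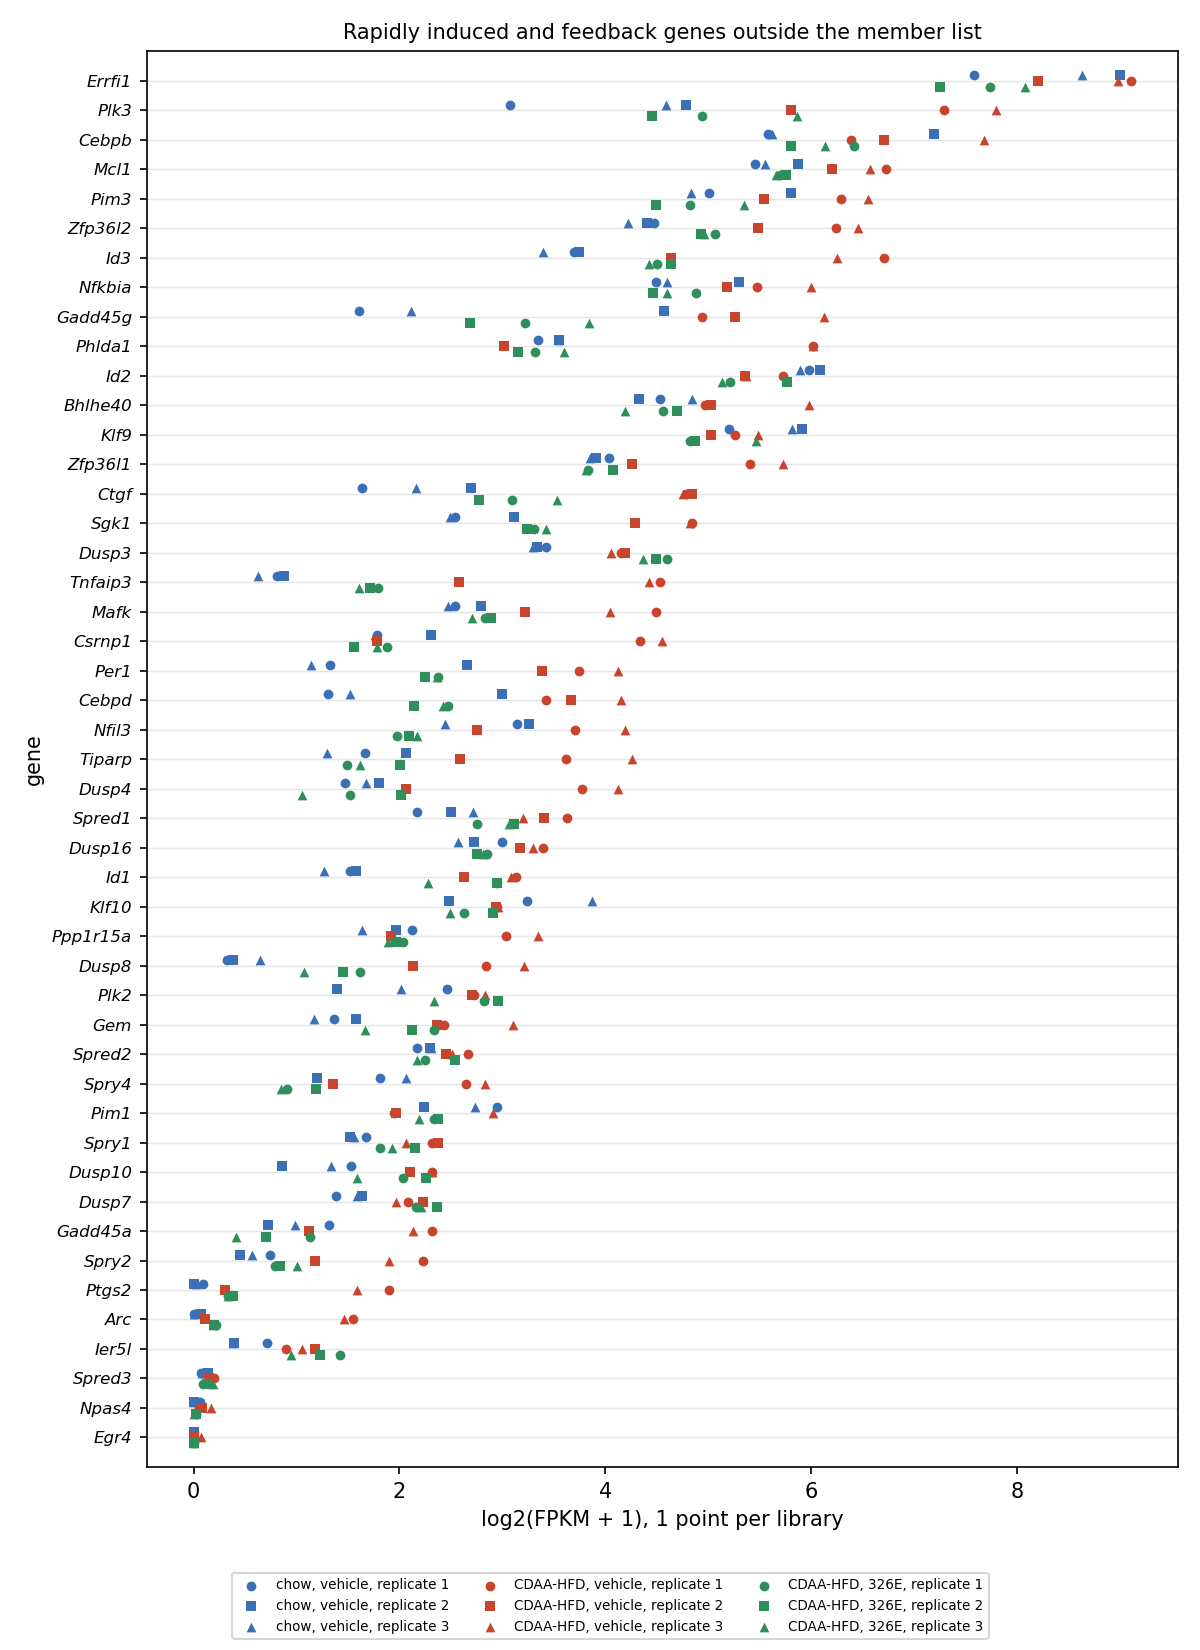
Level, as log2(FPKM + 1), of 47 other rapidly induced, feedback and mRNA-decay genes in the 9 liver libraries; colour gives the group and symbol the replicate. Vehicle replicate 2 lies apart from replicates 1 and 3 for genes such as Tnfaip3 and Dusp4, and beside them for Ctgf.

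Markers of other cell types were measured beside these genes. The 10 monocyte and macrophage markers summed to 132.6 to 197.9 FPKM in chow, 954.0, 1535.9 and 1526.9 FPKM in vehicle replicates 1, 2 and 3, and 513.9 to 931.0 FPKM in 326E libraries. Replicate 2, lowest for the immediate early genes, was level with replicate 3 for these markers, and replicate 1 was lowest. Neutrophil markers, 8 in all, summed to 5.2 to 25.7 FPKM in chow, 47.8, 34.2 and 60.5 FPKM in vehicle, and 18.6 to 32.2 FPKM in 326E libraries, with Ly6g and Mpo under 0.5 FPKM in every library. Here the sum was lowest in vehicle replicate 2, as for the immediate early genes. Of the 5 tested neutrophil markers, 3 were lowest in replicate 2, while Csf3r and Cxcr2 were lowest in replicate 1. Stellate cell and myofibroblast markers summed to 46.5 to 62.0 FPKM in chow, 194.0, 264.6 and 229.2 FPKM in vehicle and 134.8 to 161.2 FPKM in 326E libraries. The 10 hepatocyte markers summed to 44594.1 to 51375.5 FPKM in chow, 35003.6, 29638.0 and 44654.1 FPKM in vehicle, and 27328.9 to 38700.7 FPKM in 326E libraries. Of these, 5 fell and 0 rose in vehicle against chow, and 5 fell and 0 rose in 326E against chow. The 8 endothelial markers summed to 50.8 to 60.7 FPKM in chow, 57.3, 58.3 and 68.7 FPKM in vehicle, and 66.9 to 73.1 FPKM in 326E libraries. T and NK cell markers, with Cd3e under 0.5 FPKM throughout, summed to 1.1 to 1.8 FPKM in chow, 4.5, 7.1 and 3.1 FPKM in vehicle, and 2.3 to 8.0 FPKM in 326E libraries. Cholangiocyte markers, with Cftr under 0.5 FPKM throughout, summed to 2.2 to 9.0 FPKM in chow, 9.3, 19.4 and 31.2 FPKM in vehicle, and 5.2 to 15.3 FPKM in 326E libraries. Of these 4 sums, that of the hepatocyte markers alone was lowest in vehicle replicate 2 among the vehicle libraries. Most of that sum was Alb, at 25838, 20061 and 32449 FPKM in vehicle. By gene, 5 of the 10 hepatocyte markers were lowest in replicate 2. Markers of fat, muscle, pancreas and blood, with Myh4 at 0 and Acta1 and Ckm under 0.5 FPKM throughout, summed to 432.6, 1025.8 and 2420.2 FPKM in chow, 294.6, 482.1 and 291.4 FPKM in vehicle, and 392.1, 654.5 and 300.3 FPKM in 326E libraries. The mitochondrial genome took 5.61%, 5.68% and 5.82% of the reads in vehicle, 5.94% to 8.46% in chow and 5.99% to 7.31% in 326E libraries. The part of these cell types in the results was not tested.

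The members share features of their genes that the list did not use. Their genes were compact, with a median span of 4622 bases and 3 exons, against 23572 bases and 9 exons for 11815 tested protein-coding genes. Of the 34, 26 (76.5%) spanned under 10 kb, against 24.5% of those genes. The exceptions with the longest spans were Atf3, on chromosome 1 from 191170296 to 191218039 (mm10), and Nr4a3, on chromosome 4 from 48045153 to 48086447. In the 3′ untranslated region, the AU-rich letters TATTTAT, in their DNA form, occurred in 19 of 34 members (55.9%), against 29.3% of 11749 tested genes. Ier3 held 4 copies, and Dusp1, Fosl2 and Zfp36 held 3 each, whereas 0 were found in others, such as Egr1, Trib1 and Myc. Median lengths of this region were alike, 1188 bases for the members and 1105 for the tested genes.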

How the data were processed

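The data are 9 poly(A) RNA libraries of mouse liver. Reads were aligned with HISAT2 to mm10 and counted with featureCounts, per the submitters' processing notes; versions and the strand setting are not given in the sources used here. The authors deposited FPKM per gene and a gene length. Multiplied by length, 100% of the deposited FPKM were whole reads to within 0.01, and the library sizes behind them were 0.828 to 1.19 of the assigned reads.

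The test was limma 3.58.1 (R 4.3.3) with a variance trend, on log2(FPKM+1), a pseudocount of 1, for genes that reached 0.5 FPKM in 3 or more libraries. All 9 libraries entered the comparisons with vehicle, and the 6 chow and 326E libraries the comparison of those groups. P-values were adjusted by Benjamini-Hochberg over all 13737 genes, and calls made under 0.05. Libraries of a group differed far beyond counting error (chi-square per degree of freedom of 19.1 to 73.3). The fit was run on simulated data with the same relative spread in every gene and group. The members' spread was largest in vehicle, so that simulation does not cover their calls. Tables were made with Python 3.11.15, pandas 2.3.3, numpy 2.4.6 and matplotlib 3.10.9. Gene spans, exons and 3′ regions came from GENCODE vM21.

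The members and lists were chosen with earlier results of these data known. Some marker values are not reported here. All 34 members are named, with values per library, or the range in each group, where any group mean reached 1 FPKM. Of each related list, the 3 called genes with the largest change in vehicle against chow and in 326E against vehicle are named. Others, named for small counts or as markers that stood apart, were chosen after their values were seen. Alternatives are in the closing section; keeping only vehicle replicate 2 was chosen after seeing the data.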

Additional observations from a re-analysis of the deposited data

How the results depend on the processing

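Every alternative kept the direction of the members' median in all 3 comparisons. For 326E against vehicle, members called lower were 18 as reported, 4 with no filter, 5 with only the libraries of the comparison, 3 with only vehicle replicate 2 kept, and 3 to 30 when 1 library was left out; the median was -0.50 with only vehicle replicate 2 kept. There Fosl1 (0.042), Junb (0.045), Cyr61 (0.066), Nr4a2 (0.243) and Socs3 (0.071) turned positive. For vehicle against chow, members called were 30, and 19 with only vehicle replicate 2 kept, where the median was 1.47. For 326E against chow, members called were 20, and 6 with all 9 libraries in the fit, where all genes called were 3689 and 3688. Its median of 0.70 was 1.25 at a pseudocount of 0.1, 0.33 at 5, 0.97 scaled to total assigned reads and 1.32 with voom on whole reads, and Dusp1 turned to 0.001 when scaled to total assigned reads. That scaling moved the median of all genes for 326E against chow from -0.024 to 0.235, and for vehicle against chow from -0.037 to 0.25. Related genes called higher in vehicle against chow were 55, and 34 with only vehicle replicate 2 kept. Related genes called higher in 326E against chow were 20, and 47 scaled to total assigned reads. Related genes called lower in 326E against vehicle were 25, with 11 under no filter, 16 with only the libraries of the comparison, 1 with only vehicle replicate 2 kept, and 5 to 36 when 1 library was left out. Over all genes, calls for 326E against vehicle were 1574, and 1030 with no filter, 322 with only vehicle replicate 2 kept and 659 to 1623 when 1 library was left out. The cause of these differences was not tested.

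Whether the replicate numbers in the titles pair the samples is not given in the sources used here. Deviations of same-numbered libraries correlated between -0.244 and 0.024, and those of differently numbered libraries of different groups between -0.181 and 0.193. With 3 libraries a group, such values cannot decide on a pairing. With replicate number as a block, 31 members were called in the diet comparison, 12 in 326E against vehicle and 20 in 326E against chow. Over all genes the block fits called 5163, 1037 and 2870, against 5721, 1574 and 3689 without the block. Read depth limits Fosb, Egr2, Egr3 and Nr4a3 in chow, which rest on 1 to 4 reads per library.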

Other observations

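Outside the tested genes, Ptgs2, the inducible cyclooxygenase, and Arc, a neuronal immediate early gene, were also lowest in vehicle replicate 2 among the vehicle libraries, and highest in replicate 1. They and Phlda1 were chosen after their values were seen. Ptgs2 stood at 2.72, 0.236 and 2.01 FPKM in vehicle replicates 1, 2 and 3 and at 0.258 to 0.302 FPKM in 326E libraries. Arc stood at 1.92, 0.0805 and 1.75 FPKM in vehicle and at 0.145 to 0.167 FPKM in 326E libraries. Vehicle replicate 2 was below every 326E library for both genes. These values lay under the filter's minimum of 0.5 FPKM, and 1 read in a gene of 2 kb is worth 0.0246 FPKM in vehicle replicate 2. Phlda1, a pleckstrin homology-like gene, stood at 63.6, 7.10 and 63.6 FPKM in vehicle and at 7.88 to 11.1 FPKM in the 326E libraries, so its vehicle replicate 2 was below all of them.

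Of the 34 members, 7 overlap another gene in GENCODE vM21, each on the opposite strand: Atf3, Fosl1, Jun, Junb, Jund, Dusp5 and Zfp36. Of these, Junb and Fosl1 overlap protein-coding genes, Prdx2 and Ccdc85b.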
